A study of Mus musculus with 2 samples.

Results

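The genes described here encode the proteins of the mitochondrial ribosome. They were chosen by symbol, as every protein-coding gene named Mrpl or Mrps with a number and an optional letter in GENCODE vM1 on the mouse genome build mm9, which gave 76 genes of the 22359 protein-coding genes on the chromosomes analysed. By symbol, 47 were large subunit genes (Mrpl) and 29 small subunit genes (Mrps). No measured value entered the choice.

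The study mapped, by chromatin immunoprecipitation and sequencing (ChIP-seq), where the zinc finger protein Zfp322a sits on the genome of E14 cells, a mouse embryonic stem (ES) cell line that the labels place on a C57BL/6 background. There were 2 libraries. The Zfp322a library was made with an antibody raised against ZNF322, the human name of the protein, and the IgG library, the background, with an anti-rabbit IgG antibody. Both came from cells with no genotype or treatment difference given in the labels, and each antibody had 1 library, so all intervals and p-values below cover counting error only, compare these 2 libraries, and hold no replicate check.

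Mitochondria keep a small genome of their own, and the few proteins it encodes, all of them parts of the oxidative phosphorylation system, are made on a ribosome inside the organelle. The RNA of that ribosome is mitochondrial, but its proteins are encoded in the nucleus, made in the cytosol and imported. Some of the proteins have counterparts in the bacterial ribosome and others are found in mitochondria only. The genes are scattered over the chromosomes and transcribed in nearly all cells, mostly from promoters without a TATA box that bind general activators such as ETS family factors, NRF1 and YY1.

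The Zfp322a library held 4151151 reads that mapped with a quality score of 25 or more (80.0% of all mapped reads) and the IgG library 3877802 (80.1%). Reads were counted from 1000 bp upstream to 1000 bp downstream of the transcription start site (TSS), and the fold per read is the number of Zfp322a reads over the number of IgG reads after both are divided by their library totals. The ratio of the libraries was not the same on every chromosome. Over whole chromosomes that hold these genes, the fold per read ran from 0.760 on chromosome 8 to 1.15 on chromosome 9.

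The sequence just upstream of the TSS is shown for 6 genes, to set promoters with a site beside promoters with fewer Zfp322a than IgG reads. Mrpl4, Mrps36 and Mrpl32 had a putative Zfp322a site, Mrpl22 had fewer Zfp322a than IgG reads although it carried 2 activator motifs, and Mrpl46 and Mrps11 share a single short interval between them and had among the lowest folds. The sequences were read from mm9 from 5′ to 3′ on the strand of the named gene, end at the base before its TSS, and show matches to the 8 searched motifs in capitals on either strand.
Mrpl4 (chr9:20807031-20807180, plus strand): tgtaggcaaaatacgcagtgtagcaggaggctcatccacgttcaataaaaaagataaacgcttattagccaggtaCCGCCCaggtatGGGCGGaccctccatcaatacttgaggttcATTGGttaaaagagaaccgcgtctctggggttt
Mrps36 (chr13:101514615-101514764, minus strand): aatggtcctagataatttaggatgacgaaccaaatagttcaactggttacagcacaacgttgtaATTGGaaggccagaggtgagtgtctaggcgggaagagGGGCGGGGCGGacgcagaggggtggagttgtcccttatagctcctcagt
Mrpl32 (chr13:14705305-14705454, minus strand): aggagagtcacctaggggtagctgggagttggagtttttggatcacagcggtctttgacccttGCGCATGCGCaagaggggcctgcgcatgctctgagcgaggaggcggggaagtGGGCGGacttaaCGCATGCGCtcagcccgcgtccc
Mrpl22 (chr11:57985013-57985162, plus strand): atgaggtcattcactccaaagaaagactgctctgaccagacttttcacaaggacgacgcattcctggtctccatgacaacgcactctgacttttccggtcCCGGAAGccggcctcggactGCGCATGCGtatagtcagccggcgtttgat
Mrps11 (chr7:85927953-85928004, plus strand, the whole interval between the starts of Mrps11 and Mrpl46): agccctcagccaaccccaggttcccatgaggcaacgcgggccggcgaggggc

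In Mrpl4 and Mrps36 the capitals mark the SP/KLF letters GGGCGG, the GC box, and the NFY letters CCAAT, or their reverse complements, with no ETS, NRF1 or YY1 letters in these stretches. In Mrpl32 they mark 2 places with the NRF1 letters GCGCATGCG, of which the more distal matches on both strands with overlap, and 1 GC box. In Mrpl22 they mark the ETS letters CCGGAAG and the NRF1 letters. The interval between Mrps11 and Mrpl46 held none of the searched letters. The motif counts below use a wider window, from 250 bp upstream to 50 bp downstream of the TSS. There Mrpl4 also carried the ETS letters, Mrpl32 the YY1 and NFY letters, and Mrps11 and Mrpl46 both the YY1 and SP/KLF letters.

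Reads of the Zfp322a library exceeded those of the IgG library at most of these promoters, by a modest amount that was close to what coding promoters in general showed. The 76 windows held 1487 Zfp322a and 918 IgG reads, a pooled fold per read of 1.51 (95% interval 1.39 to 1.65), beside 1.42 (1.41 to 1.42) over all protein-coding genes. The median fold over the 76 genes was 1.56 (1.45 to 1.65), and the median over the 18225 coding genes for which a fold could be given was 1.35. The fold was above 1 at 63 of the 76 (82.9%), against 71.2% of those coding genes. Among the 76 genes, Zfp322a reads ran from 7 to 43 with a median of 17.5, and IgG reads from 3 to 25 with a median of 11.

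**Figure D1:**
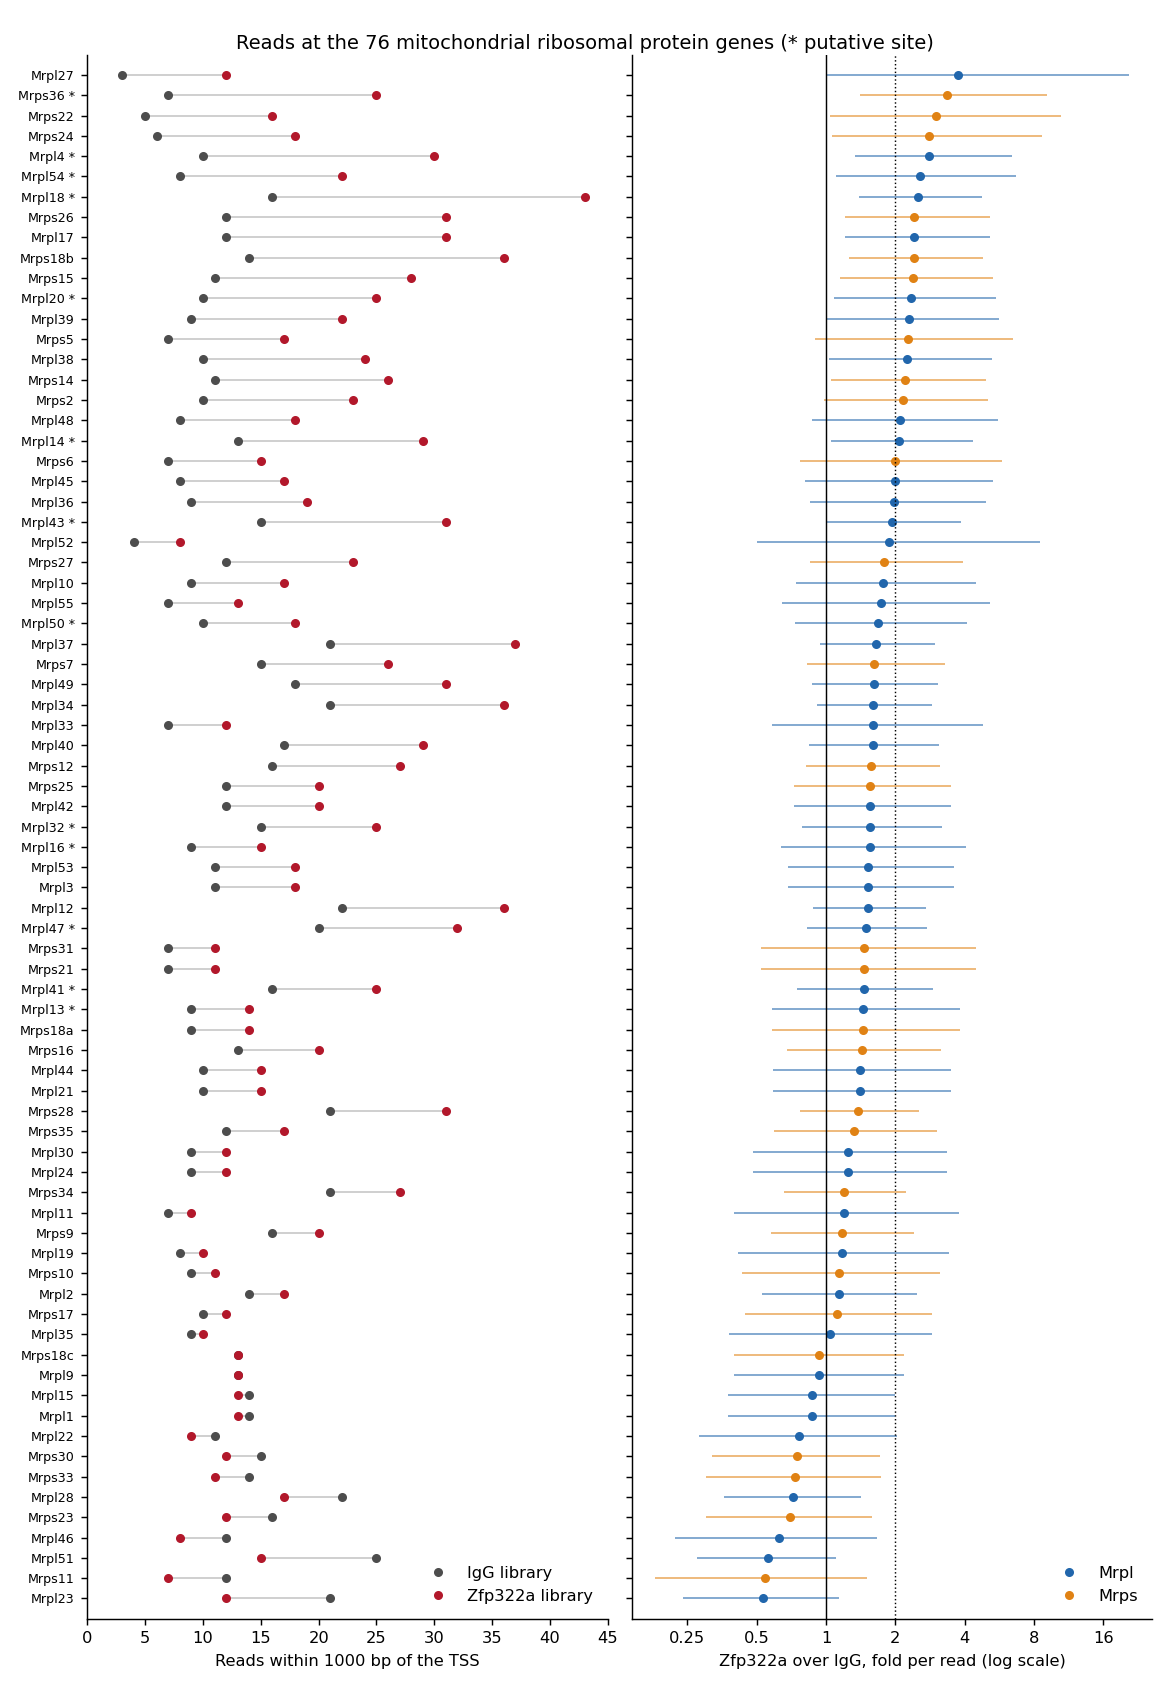
Reads within 1000 bp of the TSS in each library (left, reads, 1 library per antibody) and the fold per read with its 95% counting interval (right, log scale) for all 76 genes, ordered by fold; stars mark genes with a putative site, the solid line is a fold of 1 and the dotted line a fold of 2. Folds run from 0.534 at Mrpl23 to 3.74 at Mrpl27, most intervals cross 1, and Mrpl and Mrps genes are mixed along the order.

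A fold of at least 2 with at least 9 Zfp322a reads was reached by 20 of the 76 genes (26.3%), against 16.2% of all protein-coding genes. Without the minimum of reads it was still 20, against 19.1% of all. Both background shares count coding genes without a fold as not reaching it. Among the 18225 coding genes with a fold, the 77th percentile was 2.02, and among the 76 the 75th was 2.02. Coding genes in general had fewer Zfp322a reads, with a median of 11 against 17.5. Under the mirrored rule, a fold of at most 0.5 with at least 9 IgG reads, 0 of the 76 were called, against 1.77% of all. In the exact conditional binomial test, two-sided, 17 genes had an unadjusted p under 0.05, all with more Zfp322a reads, against 12.7% of all coding genes with such a p and more Zfp322a reads. After Benjamini-Hochberg adjustment over all coding genes 1 gene of the 76 passed with more Zfp322a reads, against 2.93% of all coding genes, so the share that passed this test was not above the background.

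The one gene that passed was Mrpl18, whose bacterial counterpart binds 5S ribosomal RNA. It had 43 Zfp322a and 16 IgG reads, the most Zfp322a reads of the 76, with a fold per read of 2.51 (1.39 to 4.78) and an adjusted p of 0.0390 in the exact test. The fold scaled by the reads of chromosome 17 was 2.41, with an adjusted p of 0.0704 in the exact test, and with the window ended 100 bp downstream of the TSS the fold was 2.90 with an adjusted p of 0.158. The start of Mrpl18 lies 37 bp from that of Tcp1, a subunit of the cytosolic chaperonin, which runs the other way.

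The largest folds came from windows with few IgG reads. Mrpl27 had 12 Zfp322a and 3 IgG reads, a fold of 3.74 with an interval of 1.01 to 20.6. Mrps36, a protein named for the small subunit and later found also in the 2-oxoglutarate dehydrogenase complex, had 25 and 7 reads and a fold of 3.34 (1.4 to 9.14). Mrps22, found in mitochondria only, had 16 and 5 reads (fold 2.99). These rank above Mrpl18 in fold but rest on fewer reads, and none of them passed the adjusted test.

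The other genes past a fold of 2 without a site were Mrps24, Mrpl17, Mrps26, Mrps18b, Mrps15, Mrpl39, Mrps5, Mrpl38, Mrps14, Mrps2, Mrpl48 and Mrps6. Their folds ran from 2.0 at Mrps6 (15 and 7 reads) to 2.80 at Mrps24 (18 and 6 reads). Mrpl17 and Mrps26 each had 31 Zfp322a and 12 IgG reads, a fold of 2.41 (1.21 to 5.16) with an adjusted p of 0.144 in the exact test. Mapping quality touched only a few of the 76 genes: reads below the minimum made up over 20% of those in the window at 3 of them, Mrps21 (33.3%), Mrpl48 (25.7%) and Mrpl10 (21.2%). Mrpl48 had 18 Zfp322a and 8 IgG reads above the minimum, and 24 Zfp322a reads without it.

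Mrpl4, whose bacterial counterpart lines the tunnel through which the new protein leaves the ribosome, had 30 Zfp322a and 10 IgG reads, a fold of 2.80 (1.33 to 6.43) and an adjusted p of 0.0874 in the exact test. Counted within 500 bp of the TSS its fold was 4.90 and the adjusted p 0.0496 in the exact test. The ratio of chromosome 9 was itself above 1, and scaled by it the fold of Mrpl4 was 2.44 and that of Mrps22 was 2.61. The scaling moved genes on chromosomes 8 and 10 the other way: Mrpl54, a large subunit protein, went from 2.57 (22 and 8 reads) to 2.98, and Mrpl34, a very small large subunit protein, from 1.60 (36 and 21 reads) to 2.11. What the chromosome ratios stem from was not tested.

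Putative binding sites were found with the height and fold criteria of the study: reads extended to 300 bp, a pile of at least 9 Zfp322a reads, and at least 3 times the IgG pile, an IgG height of 0 being taken as 1. Of the 76 genes, 13 (17.1%) had such a site in the window, against 11.3% of all protein-coding genes. With the libraries exchanged, 0 of the 76 had a site, against 0.407% of all. The regions deposited with the Zfp322a sample touched the windows of 2 of the 76, Mrpl18 and Mrpl4, against 3.07% of all. Over the genome there were 3875 putative sites, and 384 with the libraries exchanged.

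At Mrpl18 the site was at chr17:13108864-13109659, with a height of 18 Zfp322a against 5 IgG reads and a summit 316 bp upstream of the TSS, within an intron of Tcp1. At Mrpl4 it was at chr9:20807098-20807608, with heights of 16 and 2 and a summit 192 bp downstream of the TSS, in a UTR of Mrpl4. These were the 2 tallest sites of the 76, and at Mrpl4 the Zfp322a pile was 8 times the IgG pile.

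The site at Mrpl32, a protein cut to length by an inner membrane protease before it joins the ribosome, was at chr13:14705321-14705746, with heights of 15 and 5. That is exactly the minimum of 3 times the IgG pile, with heights not scaled for library size. With IgG heights scaled up by the ratio of the library totals, 1.07, the site no longer met the criteria. The summit of the site lay 251 bp upstream of the Mrpl32 TSS, in a coding exon of Psma2, a proteasome subunit whose start is 34 bp from the summit. The 2 NRF1 matches in the sequence of Mrpl32 above lie in the interval of 217 bp between the Mrpl32 and Psma2 starts. The window of Mrpl32 as a whole held 25 Zfp322a and 15 IgG reads (fold 1.56), so a narrow pile met the site criteria while the window did not reach a fold of 2.

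Mrpl47 showed such a local difference more sharply. Its site at chr3:32635673-32636094 had heights of 13 and 3, with the summit 344 bp downstream of its TSS and 187 bp from the start of Ndufb5, a complex I subunit. In the rest of its window the IgG library rose to a height of 10, the highest IgG pile of the 76 genes, and the window held 32 Zfp322a and 20 IgG reads (fold 1.5). Without the part beyond 100 bp downstream of the TSS the fold was 0.667.

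**Figure D2:**
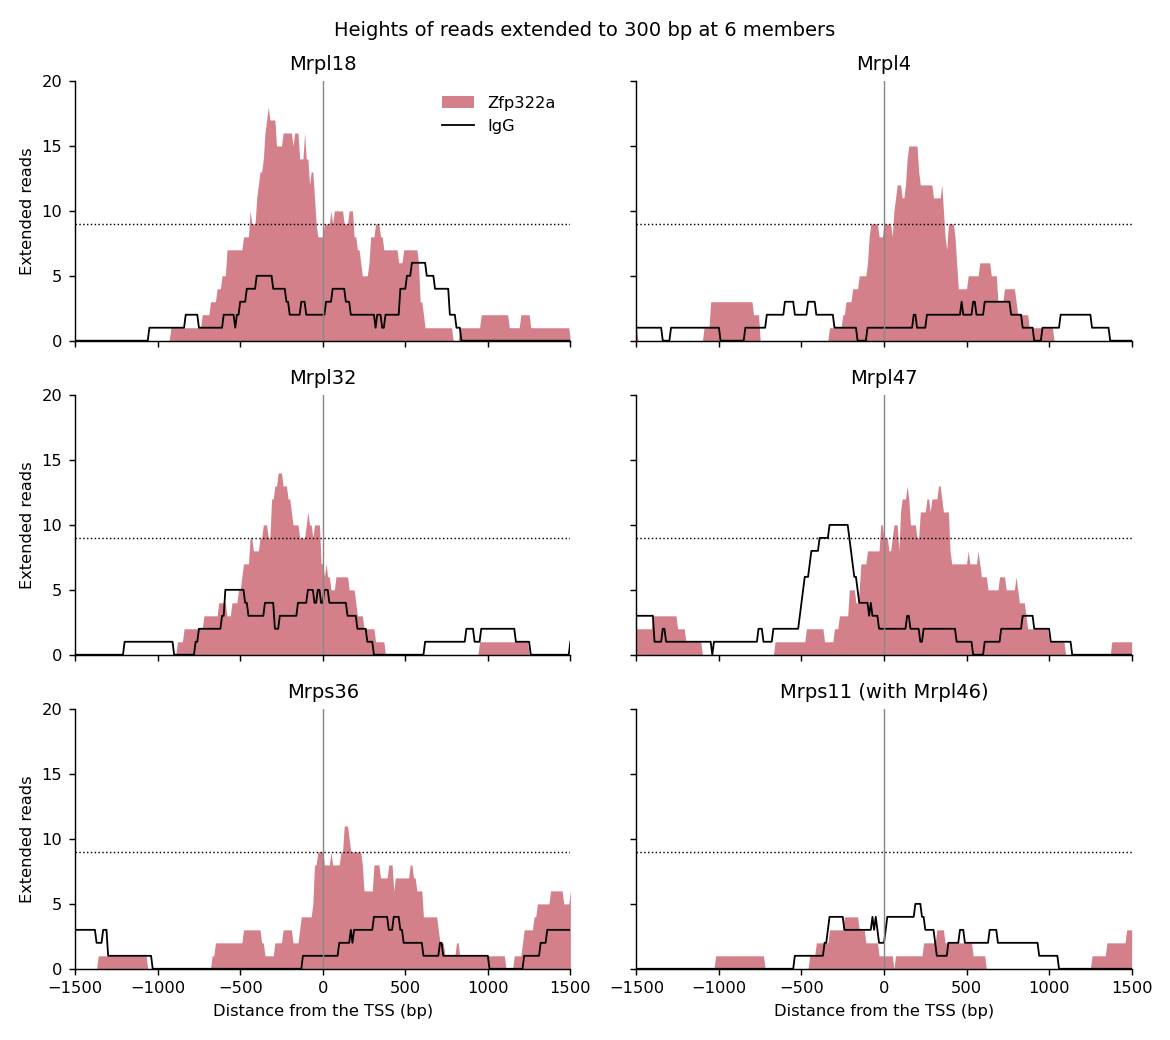
Number of Zfp322a (filled) and IgG (line) reads, each extended to 300 bp, from 1500 bp upstream to 1500 bp downstream of the TSS at 6 genes; the dotted line is the minimum height of 9. The piles of Mrpl18 and Mrpl32 lie upstream, over their neighbours, those of Mrpl4, Mrpl47 and Mrps36 lie downstream, the IgG pile of Mrpl47 lies on the other side of its TSS, and at Mrps11 and Mrpl46 the Zfp322a library stays at or below a height of 4.

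Among the other large subunit genes with a site, Mrpl54 had heights of 13 and 4 at chr10:80729310-80729609 in its own intron, 295 bp downstream of the TSS. Mrpl20, counterpart of a bacterial assembly protein, had 2 sites, with heights of 12 and 3 at 218 bp downstream and of 9 and 0 at 636 bp upstream, the latter only 17 bp long. Mrpl43 had heights of 12 and 1 at chr19:45080914-45081078, 77 bp upstream of its TSS in an intron of Peo1, which encodes the helicase that unwinds mitochondrial DNA. Here a mitochondrial ribosomal gene and a mitochondrial replication gene share 1 start region, with 155 bp between their starts.

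Mrpl14, one of the proteins that bridge the subunits, had heights of 11 and 3 at 177 bp downstream, beside Tmem63b. Mrps36 was the only Mrps gene with a site, with heights of 11 and 3 at chr13:101514378-101514644 in its own intron. Mrpl13 had heights of 10 and 3 with the summit 46 bp from the start of Mtbp. Mrpl16, which lies near the catalytic centre, Mrpl41 and Mrpl50 each had a height of 9, the minimum, against IgG heights of 2, 0 and 1, in stretches of 16, 10 and 14 bp. These last sites, and the second of Mrpl20, rest on the minimum number of reads.

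Of the 14 sites, 9 had a summit downstream and 5 upstream of the TSS. At 5 of the 13 genes, Mrpl18, Mrpl32, Mrpl47, Mrpl13 and Mrpl50, the coding gene start nearest to the summit belonged to a neighbour, so 8 of the 76 had a site nearest to their own start. Which gene of such a pair a site serves was not tested. Among the 76, windows and sites did not pick the same genes. Of the 13 genes with a site, 6 also reached a fold of 2. Of the 20 genes past a fold of 2, 14 had no site. This overlap was not counted over all coding genes, so it is not shown to be particular to the 76.

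Many genes had a tall Zfp322a pile without a site. A Zfp322a height of at least 9 was seen at 42 of the 76 genes, against 22.3% of all coding genes. Of the 42, 29 had no site. Over all coding genes 11.3% had a site, and how many with such a height lacked one was not counted. An IgG height of at least 9 was seen at 6 of the 76, against 3.1% of all. Mrpl49 and Mrps28 reached 18 Zfp322a reads, as high as Mrpl18, with IgG heights of 9 at each. Mrpl49, whose start is 142 bp from that of Fau, had 31 and 18 reads in the window (fold 1.61), and Mrps28 had 31 and 21 (fold 1.38). Mrps34 reached a height of 15 against 8, with 27 and 21 reads (fold 1.20), 29 bp from the start of Eme2.

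Mrps18b, a small subunit protein with 2 close relatives, Mrps18a and Mrps18c, had a height of 14 against 6 and 36 and 14 reads, a fold of 2.40 (1.26 to 4.82) with an adjusted p of 0.0941 in the exact test. Its relatives did not stand out, with 14 and 9 reads at Mrps18a (fold 1.45) and 13 and 13 at Mrps18c (fold 0.934). Heights of 13 were seen at Mrpl37 (IgG 9), Mrpl34 (IgG 8) and Mrpl12 (IgG 7). Mrpl12, which besides its place in the ribosome binds the mitochondrial RNA polymerase, had 36 and 22 reads (fold 1.53), and Mrpl37 had 37 and 21 (fold 1.65).

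**Figure D3:**
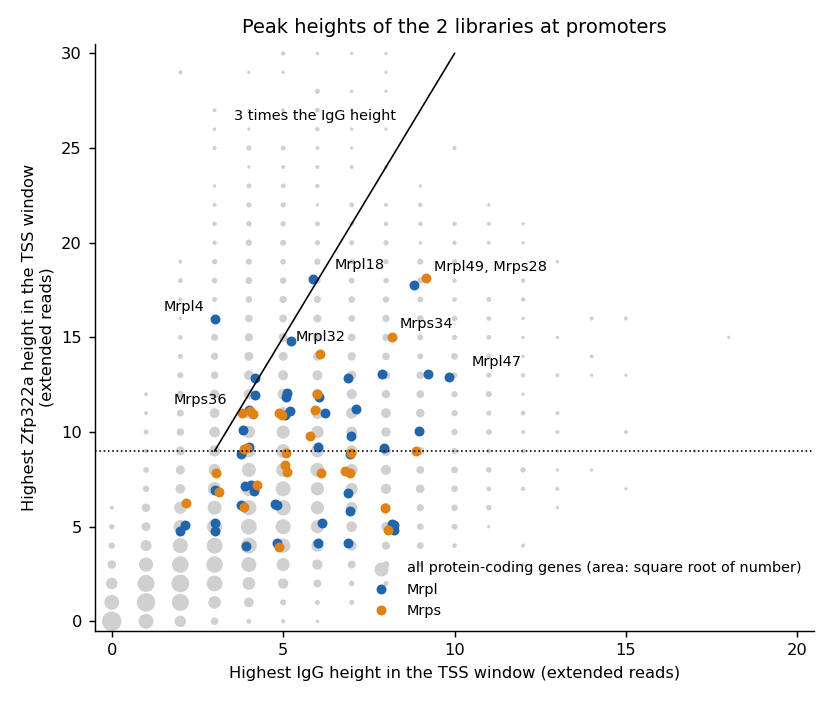
Highest pile of extended reads in the TSS window, IgG on the x axis and Zfp322a on the y axis, for the Mrpl and Mrps genes (points, shifted slightly to separate ties) and for all protein-coding genes (grey, area by the square root of their number; 40 genes lie beyond the axes). The dotted line is a height of 9 and the solid line 3 times the IgG height; Mrpl4 lies above it, Mrpl18 on it, and Mrpl49 and Mrps28, as tall as Mrpl18, lie to its right.

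At 13 genes the fold was below 1. The lowest were Mrpl23 with 12 Zfp322a and 21 IgG reads (fold 0.534, 0.239 to 1.14), Mrps11 with 7 and 12 (0.545), Mrpl51 with 15 and 25 (0.561), Mrpl46 with 8 and 12 (0.623), Mrps23 with 12 and 16 (0.701) and Mrpl28 with 17 and 22 (0.722). Each of these 6 intervals included 1, and no interval of the 76 lay below 1. Mrpl23, Mrps11 and Mrpl28 have bacterial counterparts, and Mrpl51, Mrpl46 and Mrps23 are specific to mitochondria. Mrpl51 had the most IgG reads of the 76.

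Mrps11 and Mrpl46 are 1 locus rather than 2 observations. A small and a large subunit gene start there 53 bp apart on opposite strands, so their windows hold nearly the same reads. They were the only overlapping pair of the 76, and with Mrps11 left out the pooled fold was 1.53. This start region, for which the interval is printed above, had Zfp322a heights of at most 4 and IgG heights of at most 5, in contrast to the shared starts of Mrpl18 and Tcp1 and of Mrpl43 and Peo1.

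Mrpl and Mrps genes had nearly equal folds. This split is by symbol, and Mrps18a and Mrps30 are now placed in the large subunit. Small subunit proteins under other symbols, such as Dap3 and Aurkaip1 below, were not among the Mrps genes. The 47 Mrpl genes held 927 Zfp322a and 578 IgG reads (pooled fold 1.5, 1.35 to 1.67) and the 29 Mrps genes 560 and 340 (1.54, 1.34 to 1.77). The 2 criteria split them in opposite ways. A fold of 2 was reached by 10 of 47 Mrpl (21.3%) and 10 of 29 Mrps genes (34.5%), whereas 12 of 47 Mrpl (25.5%) and 1 of 29 Mrps genes (3.45%) had a site. The difference between the Mrpl and Mrps genes was not tested. The 47 genes listed here as having a bacterial counterpart had a pooled fold of 1.51 (1.36 to 1.69). The 29 genes not on that list, Mrpl47 among them, were alike (1.51, 1.33 to 1.73). Sites were present at 7 and at 6 of them.

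Upstream of 23 of the 76 genes (30.3%) another coding gene started on the opposite strand within 1000 bp, against 8.43% of all coding genes. Sites were present at 6 of these 23 and at 7 of the other 53, and the pooled fold was 1.51 (1.31 to 1.74) and 1.52 (1.37 to 1.68). All coding genes with such a partner had a pooled fold of 1.66 (1.63 to 1.68) and sites at 25.4%. The rule took upstream starts only, so Mrpl47 and Mrpl13, whose sites lie near the starts of Ndufb5 and Mtbp, were among the 53. The partners included Sars2, the mitochondrial seryl-tRNA synthetase, 171 bp from Mrps12 (27 and 16 reads), and Hira, a histone chaperone, 270 bp from Mrpl40 (29 and 17 reads).

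Around the TSS both libraries piled up, the Zfp322a library more so. Summed over the 76 genes, the 400 bp around the TSS held 598 Zfp322a and 317 IgG reads, a fold of 1.76 (1.54 to 2.03), and the stretches 2 to 3 kb away on either side held 472 and 420, a fold of 1.05 (0.919 to 1.20). Over all coding genes the same values were 1.58 (1.56 to 1.60) and 1.08 (1.07 to 1.09). Per base, the centre was covered 6.34 times as densely as the flank in the Zfp322a library and 3.77 times in the IgG library, against 3.90 and 2.67 over all coding genes. The IgG reads therefore marked these promoters too, and more than the average promoter. In the Zfp322a and IgG libraries these ratios were 6.24 and 3.38 at cytosolic ribosomal protein genes. At nuclear genes of oxidative phosphorylation they were 5.95 and 3.55, so the 76 were not alone in this.

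Reads on the 2 strands were shifted against each other. Within 500 bp of the TSS, the median position of reads on the antisense strand lay 103 bp downstream of that of reads on the sense strand in the Zfp322a library and 46.0 bp downstream in the IgG library, counted over 566 and 560 Zfp322a and 327 and 309 IgG reads. Fragments read from both ends give such a shift around a place where they pile up.

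**Figure D4:**
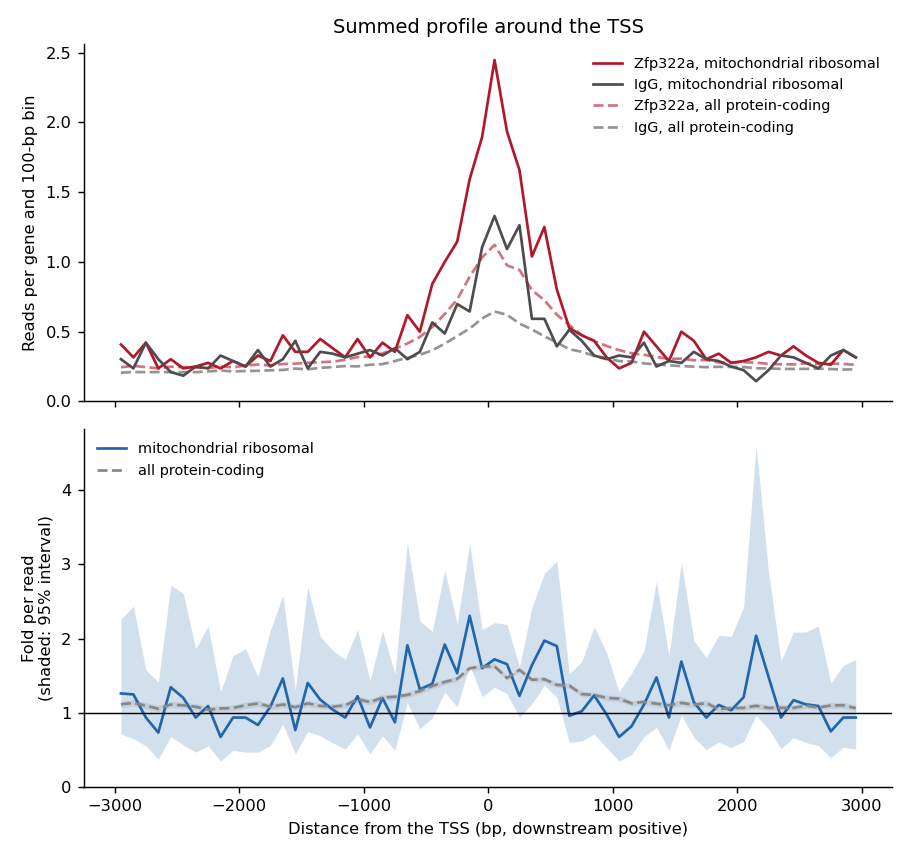
Reads per gene and 100-bp bin (top) and fold per read with its 95% counting interval (bottom) by distance from the TSS, for the 76 genes (solid) and all protein-coding genes (dashed). Both libraries peak at the TSS, where the Zfp322a library reaches 2.45 and the IgG library 1.33 reads per gene and bin at the 76 genes, and the fold returns to about 1 in the flanks.

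The promoters differed from the average in base composition and motifs. A CpG-rich promoter, with a GC content of at least 55% and a CpG content of at least 0.6 of that expected within 500 bp of the TSS, was found at 40 of the 76 (52.6%), against 39.2% of coding genes. The share was higher in the lists most like the 76, 72.5% of cytosolic ribosomal protein genes and 58.1% of nuclear genes of oxidative phosphorylation. Of the 76, the 40 with such a promoter had a pooled fold of 1.58 (1.42 to 1.76) and the other 36 one of 1.41 (1.23 to 1.61). All coding genes with a CpG-rich promoter had a pooled fold of 1.53 (1.52 to 1.55), reached a fold of 2 at 25.6% and had sites at 21.1%. Of the 40 ribosomal genes with a CpG-rich promoter, 13 (32.5%) reached a fold of 2 and 8 (20%) had a site, so their share with a site was no higher than that of all CpG-rich promoters.

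Over all coding genes the pooled fold rose with GC content, from 0.991 in the lowest quintile to 1.49 in the highest, and the share with a site from 0.311% to 20.1%. None of the 76 genes fell in the lowest quintile, where the all-gene fold was lowest. In quintiles 2 to 5 the pooled folds over all coding genes were 1.25, 1.42, 1.49 and 1.49, and those of the 76 were 1.52 (1.28 to 1.82), 1.57 (1.33 to 1.84), 1.46 (1.27 to 1.68) and 1.54 (1.23 to 1.95). In quintile 2, with a GC content of 45.5% to 52.4%, the all-gene fold lay just below the interval of the ribosomal genes, and in quintiles 3 to 5 it lay within it. Sites were present at 3.88% of all coding genes in quintile 2 and at 4 of the 23 ribosomal genes there. These differences were not tested.

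Motifs were searched as exact letters on both strands from 250 bp upstream to 50 bp downstream of the TSS. The ETS letters CCGGAAG were in 28 of the 76 promoters (36.8%), against 10.9% of all coding genes and 31.3% of cytosolic ribosomal protein genes. The YY1 letters AAGATGGC were in 13 (17.1%, against 3.43%), and the NRF1 letters GCGCATGCG in 5 (6.58%, against 2.10%). The letters ACTACAA, a part of the element bound by Ronin and HCFC1, were in 6 (7.89%, against 3.61%). CCAAT (38.2%, against 37.6%), GGGCGG (48.7%, against 44.6%) and the E-box CACGTG (6.58%, against 7.75%) were about as frequent as in all coding genes, and AGGCCT, a part of the ZFX motif, was in 1 (1.32%, against 9.75%). Cytosolic ribosomal protein genes had YY1 letters at 6.25%, NRF1 letters at 2.5% and ACTACAA at 8.75%. Nuclear genes of oxidative phosphorylation had ETS letters at 19.8%, YY1 letters at 10.5%, NRF1 letters at 8.14% and ACTACAA at 8.14%. No searched motif contains another, and a palindrome such as CACGTG or AGGCCT matches on both strands at 1 place.

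The reads did not separate the promoters by these letters. The median fold was 1.60 at the 28 genes with the ETS letters and 1.51 at the other 48, 1.58 and 1.53 with and without YY1, 1.56 and 1.56 with and without NRF1, and 1.62 and 1.47 with and without GGGCGG. Sites were present at 4 of the 28 genes with ETS letters and 9 of the 48 without. For YY1 they were at 1 of 13 and 12 of 63, for NRF1 at 1 of 5 and 12 of 71. For GGGCGG they were at 8 of 37 and 5 of 39. Mrpl22, printed above with its ETS and NRF1 letters, had 9 Zfp322a and 11 IgG reads (fold 0.764).

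Other nuclear genes of mitochondrial protein synthesis behaved much like the 76. Of 58 such genes listed by role, 56 were found, with 1106 Zfp322a and 672 IgG reads (pooled fold 1.54, 1.4 to 1.70), a median fold of 1.66, a fold of 2 at 15 (26.8%), sites at 12 (21.4%) and an adjusted p under 0.05 in the exact test at 2, both with more Zfp322a reads. Both of these encode ribosomal proteins that carry other symbols. Dap3, a GTP-binding protein of the small subunit first named for cell death, had 41 Zfp322a and 9 IgG reads, a fold of 4.26 (2.04 to 9.96) and an adjusted p of 0.00212 in the exact test. No fold among the 76 was as large. Aurkaip1, also a small subunit protein, had 29 and 8 reads, a fold of 3.39 (1.51 to 8.57) and an adjusted p of 0.0482 in the exact test.

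Of the 7 ribosomal proteins with other symbols, 3 had a site, Dap3, Aurkaip1 and Mrp63 (22 and 8 reads), and 4 reached a fold of 2, the fourth being Ptcd3 (19 and 7). Chchd1, with 14 and 17 reads, lay at the other end (fold 0.769). Among the factors that start, extend and end translation, 1 of 11 had a site, the elongation factor Tufm (19 and 5 reads, fold 3.55). Among the mitochondrial aminoacyl-tRNA synthetases 3 of 17 had one: Pars2 (29 and 9), Yars2 (38 and 14) and Cars2 (22 and 15). In rRNA processing and assembly 4 of 15 had one: the helicase Dhx30 (17 and 6), the methyltransferase Rnmtl1 (24 and 9), and the GTPases Eral1 (24 and 10) and Gtpbp10 (14 and 11). Tfam, which packages mitochondrial DNA and activates its transcription, had a site with 30 and 16 reads.

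The lowest folds on this list were those of the release factor Mtrf1 (2 and 5 reads, fold 0.374), of Lrpprc, which stabilises mitochondrial messages (20 and 27, fold 0.692), and of the alanyl-tRNA synthetase Aars2 (13 and 17, fold 0.714). Each of their intervals included 1.

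Set beside the genes of the cytosolic ribosome and of oxidative phosphorylation, the 76 genes had a smaller pooled fold. The 80 cytosolic ribosomal protein genes had a pooled fold of 1.72 (1.60 to 1.86), a median fold of 1.73, a fold of 2 at 38.8% and sites at 28.8%. The 86 nuclear genes of oxidative phosphorylation, whose products join those made on the mitochondrial ribosome, had a pooled fold of 1.68 (1.55 to 1.82), a median fold of 1.54, below that of the 76, a fold of 2 at 33.7% and sites at 26.7%. The intervals of the 3 pooled folds overlap, and the differences between the lists were not tested.

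**Figure D5:**
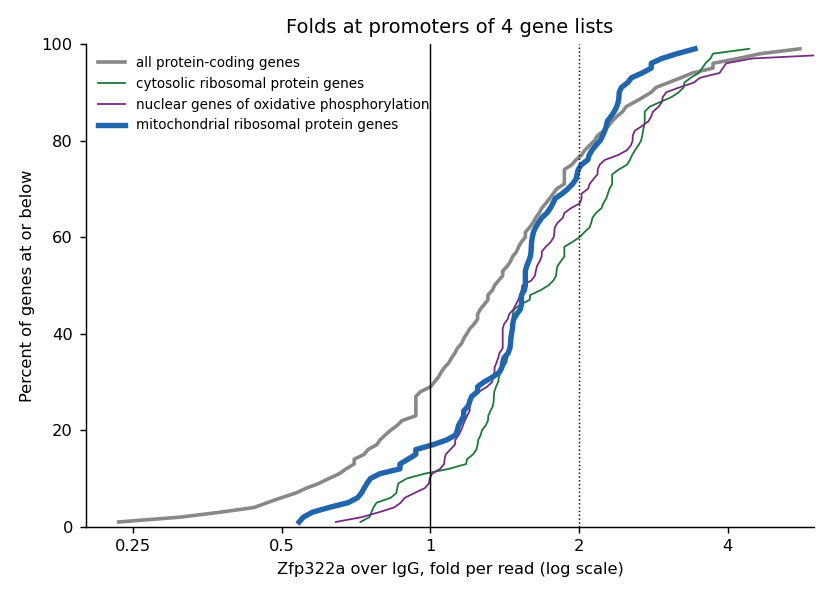
Percent of genes at or below each fold per read (x axis, log scale) for the 76 mitochondrial ribosomal protein genes, 80 cytosolic ribosomal protein genes, 86 nuclear genes of oxidative phosphorylation and all protein-coding genes with a fold. The curve of the 76 (median 1.56) lies right of that of all coding genes (median 1.35) up to a fold of about 2, and its upper end reaches lower folds than the other curves.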

How the data were processed

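ChIP-seq libraries of E14 cells were sequenced by the authors as 36-base reads and, per the labels, processed with CASAVA 1.4, BWA and Partek 6.6 on mm9. The deposited mapping files give 1 line per read with its mapping quality as a score, and the deposited region files give intervals. Reads with a score of at least 25 were used. They hold no 2 reads with the same position and strand.

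The TSS was that of the protein-coding transcript with the longest coding sequence (GENCODE vM1). Folds have Clopper-Pearson 95% intervals, a count of 0 was set to 3, and no fold was given where both counts were at most 3. The exact conditional binomial test was two-sided and Benjamini-Hochberg adjusted over 22359 genes. For sites, stretches at most 300 bp apart were joined. The strand test of the study was not applied. Python 3.11.15, numpy 2.4.6, scipy 1.17.1 and samtools 1.23.1 were used, and the scripts were tested on simulated data.

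Named genes were those with a site, the 12 tallest Zfp322a piles, the 6 lowest folds, and, from the translation list, genes with a site and the 3 lowest folds. Other genes past a fold of 2, and Mrpl22, Mrps18a, Mrps18c, Mrps12, Mrpl40, Mrps21, Mrpl10, Ptcd3 and Chchd1, were chosen after their values were seen. The genes, lists and tests were chosen with earlier results of these data known.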

Additional observations from a re-analysis of the deposited data

How the results depend on the processing

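No paired analysis was possible because each antibody has 1 library, and none could be left out. The pooled fold stayed between 1.42 and 1.65 and the median fold between 1.51 and 1.74 under every alternative. Counted within 500 bp of the TSS they were 1.65 and 1.74, and with the window ended 100 bp downstream of the TSS the median was 1.72. Those windows gave 2 and 0 genes with an adjusted p under 0.05 in the exact test, against 488 and 127 of the 22359 coding genes. Scaling by chromosome gave 0, against 614 of all coding genes in that test, and these counts take both directions. A fold of at least 1.5 was reached by 41 genes (53.9%, against 29.4% of all coding genes) and one of at least 3 by 2 (2.63%, against 5.25%). The shares of all coding genes count those without a fold, or with fewer than 9 Zfp322a reads, as not reaching it. The gap at 1.5 was smaller without them. A fold of 1.495 was the 57th percentile of coding genes with a fold and the 44th of the mitochondrial ribosomal protein genes. With IgG heights scaled by the library totals, sites fell to 12 genes (15.8%, against 9.21% of all). They fell to 5 (6.58%, against 4.44%) with heights at least 5 times the IgG height and to 4 (5.26%, against 2.09%) at 9 times. They fell to 2 (2.63%, against 3.07%) by the deposited regions, and to 8 where the gene's own start had to be nearest, a choice made after seeing the data. Of 156 values of single named genes, 149 kept their direction and side of the threshold and 4 reversed, all with the window ended 100 bp downstream of the TSS: Mrpl13 (0.374), Mrpl41 (0.934), Mrpl47 (0.667) and Mrps28 (0.545). In that window Mrpl18, and scaled by chromosome again Mrpl18, lost its call, and within 500 bp Mrpl4 gained one. With medians of 17.5 and 11 reads a window, most single folds below 2 could not be told from 1 at this depth.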
